A study of Mus musculus with 13 samples.

Results

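The glycolysis and hypoxia response genes followed here are 34 mouse genes chosen by symbol: glucose and lactate transporters, glycolytic enzymes, subunits and regulators of the hypoxia-inducible factors, and further genes that these factors are known to drive. Of these, 32 were measured among 19505 named genes, each through the feature (the array's probe set for a transcript) of its own symbol, or the brightest where several carried it. Eno1 and Gpi1 matched no feature in the annotation used and were not analysed here.

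Cells break glucose down to pyruvate in the cytosol, and fast-growing tumours often turn much of that pyruvate into lactate even when oxygen is present. When oxygen is low, prolyl hydroxylases no longer mark the alpha subunits of hypoxia-inducible factor (HIF) for destruction. The stabilised subunit pairs with ARNT and switches on genes for glucose uptake, glycolysis, acid handling, vessel growth and hydroxylases that restrain it.

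Tumours were grown from 4T1 cells, a mammary carcinoma line of BALB/c mice, injected into 1 mammary fat pad, and their flash-frozen tissue was profiled on Clariom S arrays. The injected lines were 3: 4T1OE, transduced to overexpress NLRX1, a mitochondrial protein of the NOD-like receptor family; 4T1OE-CTL, the transduced control for it; and parental, untransduced 4T1. Each line was grown in Nlrx1-/- BALB/c hosts and in WT BALB/c hosts, which gave 6 groups of 2 arrays, 12 in all, each array measuring an RNA pool. Neither the number of tumours in a pool, nor the promoter that drives the transgene, nor whether a line is 1 clone is stated in the labels. The deletion lies in the host alone, so the injected cells keep their own Nlrx1. One array, Nlrx1-/- parental replicate 1, carries advice from the array service to leave it out, and it entered no fit below, which leaves 4, 4 and 3 arrays for 4T1OE, 4T1OE-CTL and parental tumours and 5 and 6 for Nlrx1-/- and WT hosts. Nothing states that the 2 arrays of a group came from separate sets of animals, so the p-values measure the spread between these pools.

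Nlrx1 itself ran between 9.31 and 10.67 on the 4T1OE arrays of both hosts, against 5.99 and 7.06 as the lowest and highest of the 4T1OE-CTL arrays (log2 difference 3.39, adjusted p = 0.00227), which fits the line labels. The arrays did not share 1 distribution: the standard deviation of all values within an array ran from 3.09 to 3.12 in 4T1OE, from 2.78 to 3.07 in 4T1OE-CTL and from 2.89 to 3.07 in parental tumours, and was 2.53 on the array left out. Of 12 epithelial markers, 7 were above the median of the array's negative controls on all 12 arrays and 1 on none. Markers of other tissues differed between pools. The median deviation of 9 B cell and lymph node markers reached 5.13 on Nlrx1-/- 4T1OE-CTL replicate 1 and 3.77 on Nlrx1-/- 4T1OE replicate 1, and that of 22 skeletal muscle markers reached 3.10 on WT 4T1OE replicate 1 and 2.03 on Nlrx1-/- 4T1OE-CTL replicate 2. In such bulk tissue, fewer cells of a type and less RNA per cell cannot be told apart.

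Of the 32 genes, 30 were above the median of the negative controls on all 12 arrays. Slc2a3, a high-affinity glucose transporter, exceeded it on 4 arrays and Eno2, the neuronal enolase, on 1, so no size of difference is given for them below. All values are deposited log2 values; since each gene has its own probes, levels are compared between tumours and never between genes.

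**Figure D1:**
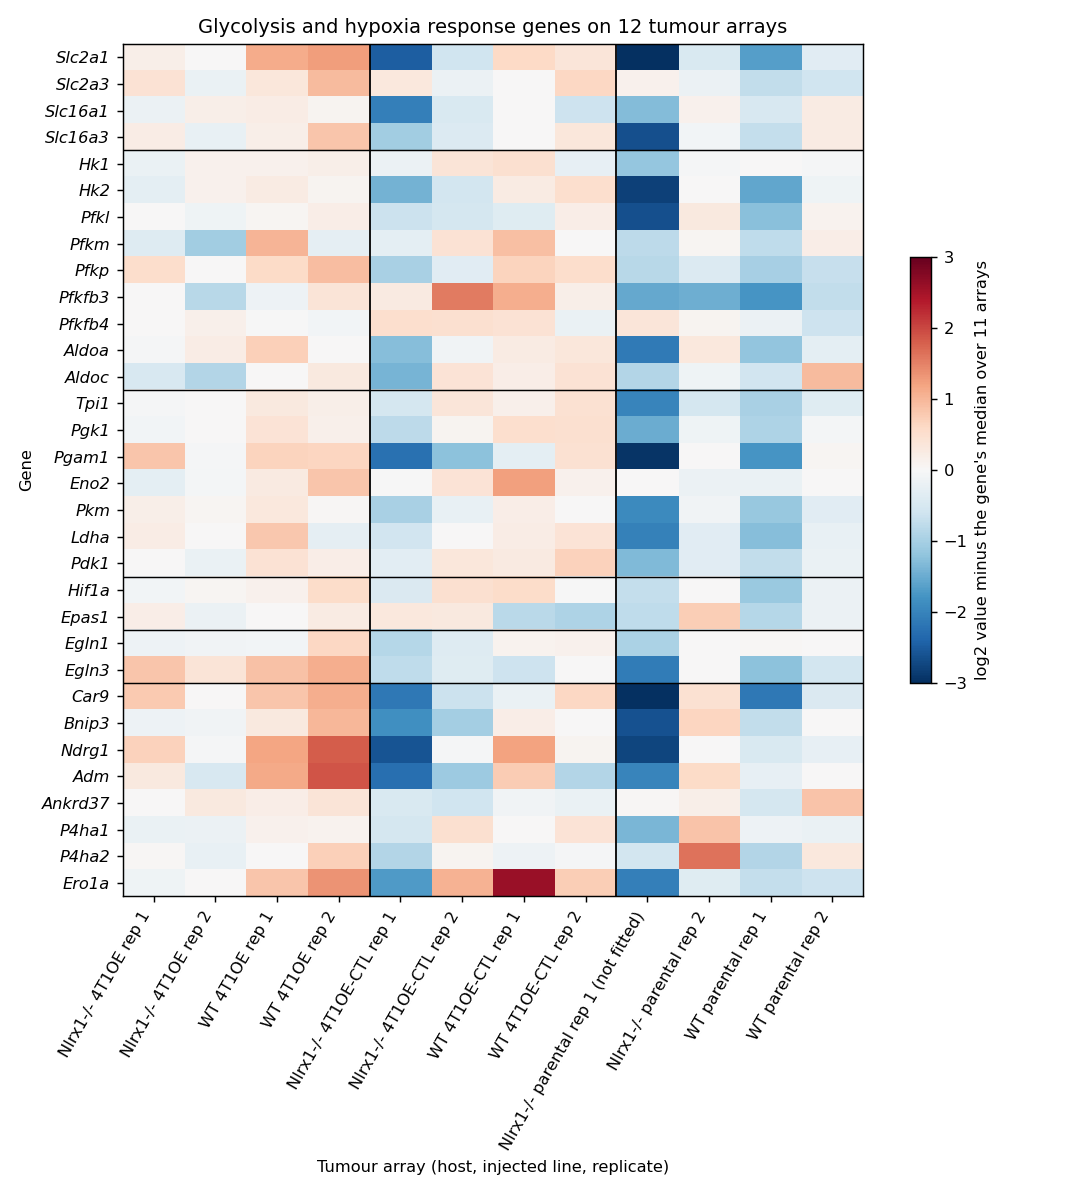
Values of the 32 measured genes (rows, grouped by role: transport, upper glycolysis, lower glycolysis and lactate, HIF subunits, HIF prolyl hydroxylases, other hypoxia targets) on the 12 tumour arrays (columns, grouped by line). Colour is each gene's log2 deviation from its own middle value across the 11 arrays that were fitted, on a scale that stops at 3 in each direction; the columns of Nlrx1-/- 4T1OE-CTL replicate 1, WT parental replicate 1 and the unfitted Nlrx1-/- parental replicate 1 are blue for most genes.

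The genes tended to be low together on the same arrays. The unfitted Nlrx1-/- parental replicate 1 was the lowest of the 12 arrays for 19 of the 32 genes. Among the 11 fitted arrays, Nlrx1-/- 4T1OE-CTL replicate 1 was lowest for 14 genes and WT parental replicate 1 for 12, whereas WT 4T1OE replicate 2 was highest for 10. The median deviation of the 32 genes was 0.00 and -0.01 in Nlrx1-/- hosts and 0.29 and 0.39 in WT hosts for 4T1OE. For 4T1OE-CTL it was -0.82 and -0.07 in Nlrx1-/- hosts and 0.21 and 0.19 in WT hosts. For parental tumours it was 0.00 on the fitted Nlrx1-/- array and -0.81 and -0.18 in WT hosts, and -1.52 on the array left out.

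Between 4T1OE and 4T1OE-CTL tumours, 1 of the 32 genes, Egln3, was higher and none lower at an adjusted p under 0.05, where 3.69% of all 22206 features were called higher and 1.04% lower (4.73% in all). The median difference of the 32 genes was 0.35, with 22 positive and 10 negative, against -0.05 over all features. The 3649 features averaging above 10 had a median of 0.34, and the 23 genes of the list that lie in that range had 0.36, so the 2 medians were close in this comparison. Between 4T1OE-CTL and parental tumours, 1 gene, Pfkfb3, was higher and none lower, where 0.968% of features were called higher and 1.62% lower (2.59% in all), and the list's median was 0.20 with 20 positive, against 0.02 over all features. Above a mean of 10, the median was 0.17 for the 23 genes and -0.17 for all features in that range. Between 4T1OE and parental tumours no gene of the list passed, where 1.33% of features did (0.887% higher and 0.441% lower), although 29 of 32 differences were positive, with a median of 0.59 against -0.03 over all features. Above a mean of 10, it was 0.64 for the 23 genes and 0.17 for all features. In this comparison 5 of 12 epithelial markers and 4 of 9 fibroblast markers were called lower, with all 12 and all 9 negative and medians of -1.58 and -1.89. Of 11 proliferation genes, all were positive and 3 were called higher, with a median of 1.58. The part of these shifts in the list's values was not tested. At an unadjusted p under 0.05, 11 of the 32 genes passed in that comparison and 13.8% of all features. Above a mean of 10 it was 9 of 23 genes and 876 of 3649 features. The same counts were 8 of 32 against 24.2% between 4T1OE and 4T1OE-CTL and 8 of 32 against 15.9% between 4T1OE-CTL and parental tumours. Above a mean of 10 they were 6 of 23 genes against 1399 of 3649 features, and 4 of 23 against 1114. Slc2a3 is among the 11, and Slc2a3 and Eno2 are among the 8 between 4T1OE-CTL and parental tumours. Of the 3649 features, 361 were called higher and 43 lower between 4T1OE and 4T1OE-CTL, and 75 and 153 between 4T1OE-CTL and parental tumours. Between 4T1OE and parental tumours it was 85 and 29. The comparisons share the arrays of a line, so their values are not independent of each other.

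**Figure D2:**
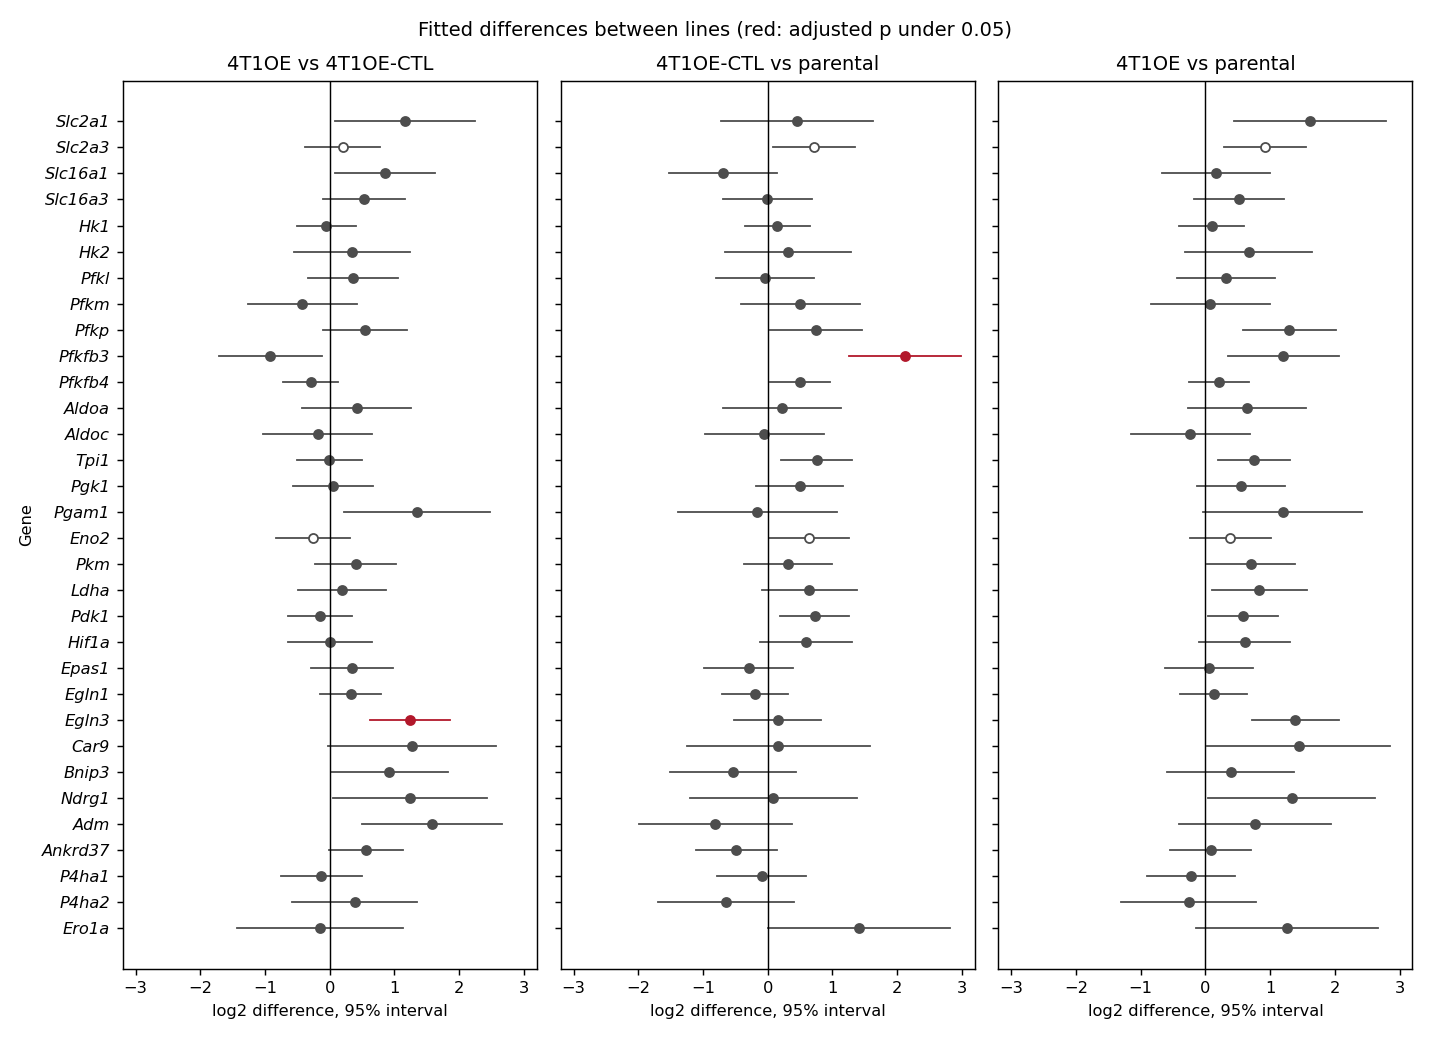
Fitted log2 difference with its 95% interval for each of the 32 genes in the 3 comparisons of lines; red marks an adjusted p under 0.05, and open circles mark Slc2a3 and Eno2, which were not above the negative controls on all arrays. Egln3 is red in 4T1OE against 4T1OE-CTL and Pfkfb3 in 4T1OE-CTL against parental tumours, and most points lie right of 0 in 4T1OE against parental tumours.

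The promoters of the 2 genes that passed, of Ankrd37, the other gene whose 4T1OE arrays all lay above the 4T1OE-CTL arrays, and of Slc2a1, which had the largest difference between 4T1OE and parental tumours, are shown because HIF binds a short core sequence, ACGTG or GCGTG. The sequences are RefSeq windows on GRCm38.p6 of 300 bases, with 250 before and 50 from the annotated start on, written along the gene's strand. Capitals mark each match on either strand, so that a match on the other strand reads CACGT or CACGC and overlapping matches run together; CACGTG is also the E-box bound by MYC and other factors. Pfkfb3 has 2 annotated starts.
Egln3 (chr12:54203825-54204124, minus strand): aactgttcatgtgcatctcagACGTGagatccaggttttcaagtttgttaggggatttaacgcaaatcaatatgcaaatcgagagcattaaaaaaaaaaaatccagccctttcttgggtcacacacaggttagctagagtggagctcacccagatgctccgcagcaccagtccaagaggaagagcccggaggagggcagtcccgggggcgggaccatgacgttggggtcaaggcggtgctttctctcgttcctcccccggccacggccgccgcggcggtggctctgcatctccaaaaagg
Ankrd37 (chr8:45999801-46000100, minus strand): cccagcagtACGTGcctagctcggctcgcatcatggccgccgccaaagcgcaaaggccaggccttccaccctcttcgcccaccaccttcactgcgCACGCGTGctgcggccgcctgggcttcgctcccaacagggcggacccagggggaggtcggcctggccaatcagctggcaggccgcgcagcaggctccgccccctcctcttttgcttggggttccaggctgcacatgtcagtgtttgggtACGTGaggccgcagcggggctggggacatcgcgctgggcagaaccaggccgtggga
Pfkfb3, first window (chr2:11502041-11502340, minus strand): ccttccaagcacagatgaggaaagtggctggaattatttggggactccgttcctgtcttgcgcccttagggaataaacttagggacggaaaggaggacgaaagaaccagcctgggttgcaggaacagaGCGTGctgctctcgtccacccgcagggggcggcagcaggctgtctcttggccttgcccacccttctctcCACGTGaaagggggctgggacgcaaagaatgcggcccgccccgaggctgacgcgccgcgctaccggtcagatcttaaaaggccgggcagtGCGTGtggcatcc
Pfkfb3, second window (chr2:11553880-11554179, minus strand): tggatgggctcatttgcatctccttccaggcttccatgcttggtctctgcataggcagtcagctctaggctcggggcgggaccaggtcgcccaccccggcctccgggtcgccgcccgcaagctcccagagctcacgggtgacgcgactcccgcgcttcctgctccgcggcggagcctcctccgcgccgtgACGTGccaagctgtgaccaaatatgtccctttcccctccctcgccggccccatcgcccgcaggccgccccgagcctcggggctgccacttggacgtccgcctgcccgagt
Slc2a1 (chr4:119108495-119108794, plus strand): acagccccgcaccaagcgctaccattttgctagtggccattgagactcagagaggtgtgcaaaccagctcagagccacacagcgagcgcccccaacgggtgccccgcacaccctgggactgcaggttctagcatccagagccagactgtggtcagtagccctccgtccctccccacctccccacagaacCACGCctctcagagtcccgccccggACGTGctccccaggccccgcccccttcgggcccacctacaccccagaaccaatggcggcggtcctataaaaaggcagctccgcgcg
Egln3 has 1 match, Ankrd37 has 3 stretches, Pfkfb3 has 3 and 1, and Slc2a1 has 2. Of the 29 measured genes with such a window, 27 held a match in at least 1 window, as did 46.7% of the 27025 genes tabulated. Those without a match were Eno2 and Tpi1, and Tpi1 also separated 4T1OE from parental tumours. By window the share was 81.8% of 44 windows of the listed genes, against 43.8% of all 32851, and CACGTG stood in 6 of those 44 and in 7.15% of all. A match is a stretch of letters and not a measured binding site. The list was picked in part for known hypoxia targets, so its share is no independent finding.

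Among the transporters, Slc2a1 (GLUT1, the main glucose importer of many tumour cells) differed most. In 4T1OE tumours it read 15.57 and 15.40 in Nlrx1-/- hosts and 16.50 and 16.65 in WT hosts. The 4T1OE-CTL tumours gave 12.92 and 14.79 in Nlrx1-/- hosts and 16.00 and 15.75 in WT hosts, and parental tumours gave 14.95 in the fitted Nlrx1-/- pool and 13.76 and 15.05 in WT hosts. All 4T1OE arrays were thus above all fitted parental arrays, while 4T1OE-CTL spanned both. The difference was 1.62 ± 0.54 (SE) between 4T1OE and parental tumours (adjusted p = 0.193) and 1.16 ± 0.49 between 4T1OE and 4T1OE-CTL (adjusted p = 0.177), and neither passed.

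The monocarboxylate transporters carry lactate across the membrane: Slc16a1 encodes MCT1 and Slc16a3 encodes MCT4, the exporter of glycolytic cells. Slc16a1 averaged 13.28 ± 0.18 in 4T1OE and 12.42 ± 0.88 in 4T1OE-CTL tumours (SD, n = 4 each), a difference of 0.86 with an adjusted p of 0.166. Its 4T1OE-CTL spread came from 1 array, Nlrx1-/- replicate 1, at 11.15, below the 12.57 to 13.20 of the other 3. Slc16a3 differed by 0.52 between the same lines (adjusted p = 0.286) and by -0.01 between 4T1OE-CTL and parental tumours (95% interval -0.69 to 0.68).

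Upper glycolysis holds the hexokinases that trap glucose, the phosphofructokinase subunits that commit it, the enzymes that set the level of their activator fructose 2,6-bisphosphate, and the aldolases. Of its 9 genes, Pfkfb3 rose in 4T1OE-CTL over parental tumours and no other passed in any comparison. Pfkfb3, which makes fructose 2,6-bisphosphate and so speeds phosphofructokinase, read 10.11 and 11.40 in Nlrx1-/- hosts and 10.92 and 10.03 in WT hosts for 4T1OE-CTL, against 8.38 on the fitted Nlrx1-/- array and 8.07 and 9.11 in WT hosts for parental tumours. The 2 lines did not overlap, and the difference was 2.12 ± 0.40 (SE), or 4.35-fold (adjusted p = 0.0166). Such separation with 4T1OE-CTL higher was seen for 1 of the 32 genes and for 4.88% of all features.

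The 4T1OE tumours lay between the other lines on average, at 9.84 and 9.02 in Nlrx1-/- hosts and 9.70 and 10.24 in WT hosts. Pfkfb3 was thus -0.92 in 4T1OE relative to 4T1OE-CTL (adjusted p = 0.153) and 1.20 relative to parental tumours (adjusted p = 0.184), and neither passed. On the same arrays, 22 of 22 skeletal muscle markers were positive in 4T1OE-CTL over parental tumours, with 1 called and a median of 1.57; their median deviations ran from 0.00 to 2.03 in 4T1OE-CTL and from -0.47 to -0.23 in parental tumours. With that deviation as a covariate the Pfkfb3 difference was 1.96 and no longer passed (adjusted p = 0.120). Restricted to arrays with a standard deviation of at least 3, which leaves 1 4T1OE-CTL array, it was 0.98 (adjusted p = 0.391). Other markers moved with this comparison too: 6 of 12 epithelial markers were called lower (median -2.27), 4 of 11 proliferation genes were called higher with all 11 positive (median 1.36), and 1 of 12 T and NK cell markers was called higher with all 12 positive (median 1.66). Fibroblast markers had 2 of 9 called lower (median -0.93) and endothelial markers 1 of 13 (median -0.69). Their part in the Pfkfb3 difference was not tested.

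Pfkp, the platelet-type phosphofructokinase subunit common in tumours, read 12.01 and 11.48 in Nlrx1-/- hosts and 12.05 and 12.40 in WT hosts for 4T1OE. Parental tumours gave 11.07 in the fitted Nlrx1-/- pool and 10.48 and 10.79 in WT hosts, all below the 4T1OE arrays. The difference was 1.30 ± 0.33 (SE), with an adjusted p of 0.0834. The 4T1OE-CTL arrays, from 10.50 to 12.14, overlapped both lines. Its muscle counterpart Pfkm differed by -0.43 between 4T1OE and 4T1OE-CTL (adjusted p = 0.517). Pfkm was highest, at 8.74, on the WT 4T1OE array that carried most muscle signal. The part of muscle tissue in that value was not tested. The liver-type subunit Pfkl differed by 0.36 between those lines (adjusted p = 0.509).

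Hk1, the broadly expressed hexokinase, averaged 13.30 ± 0.17 in 4T1OE and 13.35 ± 0.37 in 4T1OE-CTL tumours (SD, n = 4 each), a difference of -0.05 (95% interval -0.51 to 0.40). Hk2, the hexokinase often raised in tumours, differed by 0.35 between the same lines (95% interval -0.55 to 1.25). Pfkfb4, a relative of Pfkfb3, was -0.29 in 4T1OE against 4T1OE-CTL (adjusted p = 0.374) and 0.50 in 4T1OE-CTL against parental tumours (adjusted p = 0.278). The aldolases Aldoa and Aldoc, which split fructose 1,6-bisphosphate, differed by 0.42 and -0.19 between 4T1OE and 4T1OE-CTL, each with an interval across 0.

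In lower glycolysis and lactate production none of 7 genes passed in any comparison. All 7, the dim Eno2 included, were positive in 4T1OE over parental tumours, with a median of 0.71. Pgam1, the phosphoglycerate mutase of most tissues, had the widest spread. It read 12.90 and 12.05 in Nlrx1-/- hosts and 12.75 and 12.72 in WT hosts for 4T1OE. It read 9.84 and 10.85 in Nlrx1-/- hosts and 11.78 and 12.54 in WT hosts for 4T1OE-CTL, so that the 2 lines overlapped through 1 WT array. The difference was 1.35 ± 0.52 (SE; adjusted p = 0.141).

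Tpi1, triose phosphate isomerase, separated 4T1OE from parental tumours, with 15.21, 15.25, 15.54 and 15.42 against 14.72, 14.29 and 14.90. The difference of 0.75 did not pass (adjusted p = 0.196), and against 4T1OE-CTL it was -0.01 (95% interval -0.51 to 0.50). Pdk1, the kinase that keeps pyruvate out of the mitochondrial cycle, differed by 0.58 between 4T1OE and parental tumours (adjusted p = 0.314). Its 2 lines barely separated, with 10.5255 as the lowest 4T1OE array and 10.5246 as the highest fitted parental array. Pkm, pyruvate kinase, was above the fitted parental arrays on every 4T1OE array, with a difference of 0.71 (adjusted p = 0.334). Ldha, the lactate dehydrogenase subunit that favours lactate, differed by 0.83 (adjusted p = 0.288), with overlapping arrays. Pgk1, phosphoglycerate kinase, differed by 0.55 (adjusted p = 0.470).

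The HIF alpha subunits did not pass in any comparison of lines. Hif1a, whose protein is controlled mainly by its stability, averaged 15.14 ± 0.27 in 4T1OE and 15.13 ± 0.46 in 4T1OE-CTL tumours, a difference of 0.01 (95% interval -0.64 to 0.66), and 14.55 ± 0.60 in parental tumours (n = 3). Epas1, which encodes HIF-2 alpha and is prominent in endothelium and macrophages, differed by 0.35 between 4T1OE and 4T1OE-CTL (adjusted p = 0.480) and showed a host pattern described further on.

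Of the 2 prolyl hydroxylase genes, Egln3 (PHD3) rose in 4T1OE over 4T1OE-CTL tumours. It is itself a known HIF target, and its product hydroxylates HIF alpha. It read 15.45 and 15.03 in Nlrx1-/- hosts and 15.52 and 15.72 in WT hosts for 4T1OE, against 13.86 and 14.27 in Nlrx1-/- hosts and 14.01 and 14.63 in WT hosts for 4T1OE-CTL. Parental tumours gave 14.64 in the fitted Nlrx1-/- pool and 13.40 and 14.08 in WT hosts, and 12.53 on the array left out. Every 4T1OE array was above every array of the other lines, while 4T1OE-CTL and parental tumours overlapped.

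The Egln3 difference was 1.24 ± 0.28 (SE), or 2.36-fold (adjusted p = 0.0342), between 4T1OE and 4T1OE-CTL and 1.39 ± 0.31 between 4T1OE and parental tumours, where it missed the threshold (adjusted p = 0.0543). It was 0.15 between 4T1OE-CTL and parental tumours (95% interval -0.52 to 0.83). Macrophage markers moved with the same contrast: 7 of 14 passed, all with 4T1OE above 4T1OE-CTL, and their median deviations ran from 0.38 to 0.68 in 4T1OE, from -1.93 to -0.11 in 4T1OE-CTL and from -1.09 to 0.01 in parental tumours. Endothelial markers had 4 of 13 called higher and 11 positive (median 0.70), and T and NK cell markers had 1 of 12 called lower and 11 negative (median -1.09); their part was not tested. With the macrophage deviation as a covariate, the Egln3 difference was 0.50 and did not pass (adjusted p = 0.926); with the array's standard deviation as a covariate it was 0.73 (adjusted p = 0.683), and after quantile normalization 0.90 (adjusted p = 0.0745). With 1 array left out in turn it stayed between 1.11 and 1.40 and passed in 3 of 11 fits.

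Egln1 (PHD2), the main oxygen sensor of the family, differed by 0.32 between 4T1OE and 4T1OE-CTL (adjusted p = 0.380). Its 4T1OE values were 13.24 and 13.30 in Nlrx1-/- hosts and 13.32 and 14.02 in WT hosts, so 1 array stood above the other 3.

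**Figure D3:**
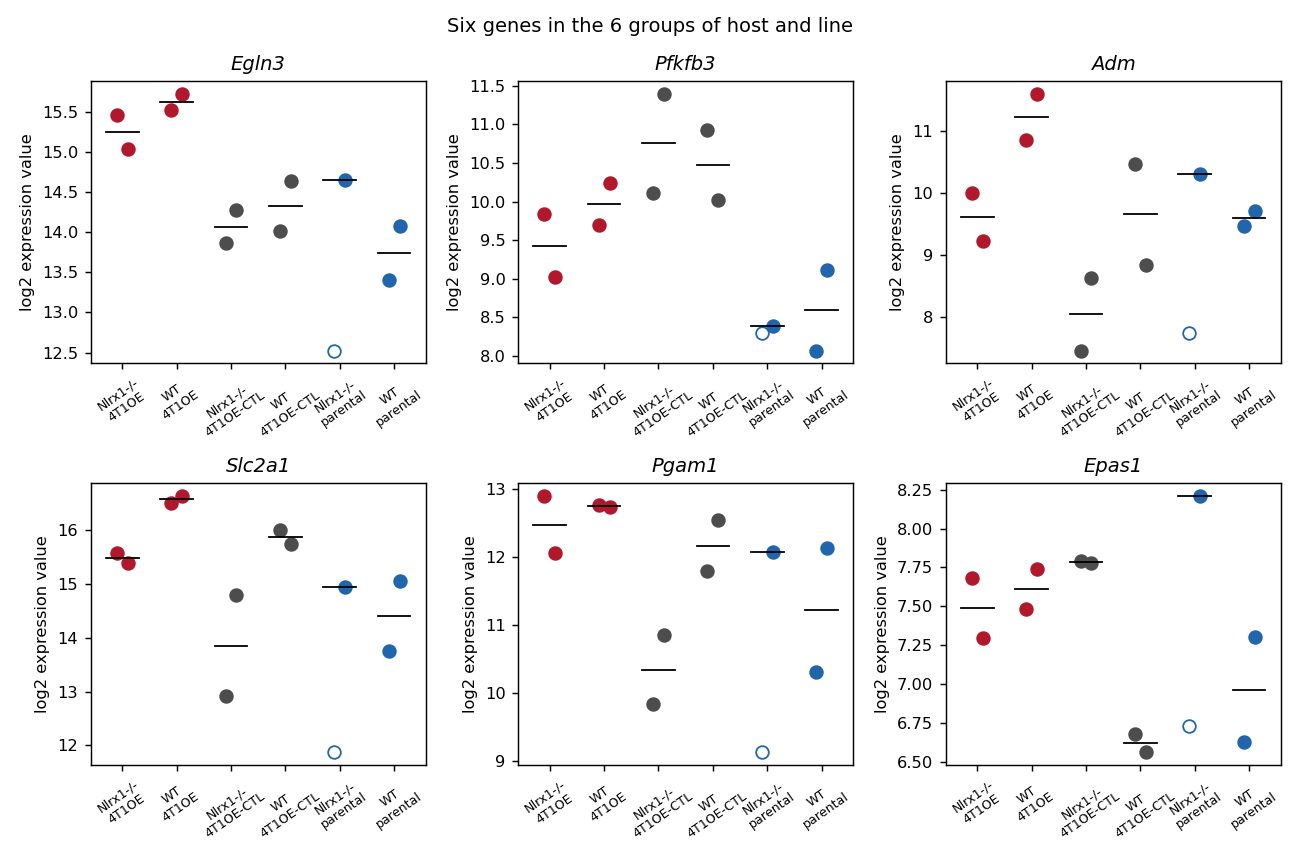
Log2 values of Egln3, Pfkfb3, Adm, Slc2a1, Pgam1 and Epas1 on each tumour array (points) with the group mean (bar) in the 6 groups of host and line; the open circle is the array that entered no fit. The Egln3 points of both 4T1OE groups lie between 15.03 and 15.72, above all others, and the Pfkfb3 points of both 4T1OE-CTL groups lie above the parental ones.

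Among the 8 other hypoxia targets no gene passed in any comparison, and the differences between 4T1OE and 4T1OE-CTL were positive for 6 of them, with a median of 0.74. Adm encodes adrenomedullin, a vasodilating peptide. It read 10.01 and 9.23 in Nlrx1-/- hosts and 10.87 and 11.61 in WT hosts for 4T1OE, and 7.45 and 8.63 in Nlrx1-/- hosts and 10.47 and 8.85 in WT hosts for 4T1OE-CTL. The lines overlapped through the higher WT 4T1OE-CTL array, and the difference of 1.58 ± 0.50 (SE) did not pass (adjusted p = 0.0877). Parental tumours, at 10.30 in the fitted Nlrx1-/- pool and 9.48 and 9.72 in WT hosts, lay within the 4T1OE range.

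Car9, carbonic anhydrase IX, acidifies the surroundings of hypoxic cells. It read 11.59 and 10.80 in Nlrx1-/- hosts and 11.62 and 11.88 in WT hosts for 4T1OE, and 8.65 and 10.16 in Nlrx1-/- hosts and 10.59 and 11.42 in WT hosts for 4T1OE-CTL. The difference was 1.27 ± 0.59 (SE; adjusted p = 0.215), and against parental tumours, at 11.26 in the fitted Nlrx1-/- pool and 8.65 and 10.38 in WT hosts, it was 1.44 (adjusted p = 0.350). Car9 was thus low on the same arrays as most of the list.

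Ndrg1, a stress-response gene raised by low oxygen, had its lowest fitted value on Nlrx1-/- 4T1OE-CTL replicate 1, 12.11, against 14.65 on the other Nlrx1-/- array and 15.91 and 14.78 in WT hosts. In 4T1OE tumours it read 15.39 and 14.66 in Nlrx1-/- hosts and 15.87 and 16.51 in WT hosts. The difference of 1.24 ± 0.54 (SE) did not pass (adjusted p = 0.190). Bnip3, a mitophagy receptor, differed by 0.92 between the same lines (adjusted p = 0.197).

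Ankrd37 was the other gene, beside Egln3, whose 4T1OE arrays (7.33 to 7.71) all lay above the 4T1OE-CTL arrays (6.73 to 7.22). Its difference of 0.56 did not pass (adjusted p = 0.215), and its parental arrays, from 6.80 to 8.18, covered both lines. Such separation was seen for 6.25% of the 32 genes, against 9.39% of all features and 23.0% of features averaging above 10. Between 4T1OE and parental tumours, 7 of the 32 genes (21.9%) were separated with 4T1OE higher: Slc2a1, Pfkp, Tpi1, Pkm, Egln3, Ero1a and, barely, Pdk1. Of all features 9.96% were, and of features averaging above 10, 20.1%.

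Ero1a, the oxidase that forms disulphide bonds in the endoplasmic reticulum, varied most among 4T1OE-CTL tumours: 11.40 and 14.15 in Nlrx1-/- hosts and 15.69 and 13.84 in WT hosts. Its 4T1OE values were 12.98 and 13.11 in Nlrx1-/- hosts and 13.94 and 14.46 in WT hosts, and its parental values 12.75 on the fitted Nlrx1-/- array and 12.38 and 12.49 in WT hosts. The difference between 4T1OE-CTL and parental tumours was 1.41 ± 0.64 (SE; adjusted p = 0.312); without Nlrx1-/- 4T1OE-CTL replicate 1 it was 2.02 and passed (adjusted p = 0.0389). P4ha1 and P4ha2, collagen prolyl hydroxylase subunits, differed by -0.13 and 0.38 between 4T1OE and 4T1OE-CTL, each with an interval across 0. On the fitted Nlrx1-/- parental array P4ha2 read 10.54, above the 8.03 to 9.63 of the other fitted arrays.

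Between Nlrx1-/- and WT hosts no gene of the list passed, nor did any of the 22206 features (0%); at an unadjusted p under 0.05, 5 of the 32 genes and 4.3% of features did. The differences were negative for 28 of the 32 genes, with a median of -0.32 against 0.00 over all features and -0.06 over features averaging above 10. Of the 3649 features averaging above 10, 2214 were negative between hosts. By group means, 31 of 32 genes were lower in Nlrx1-/- than in WT hosts for 4T1OE (median -0.39, against 0.0006 over all features). For 4T1OE-CTL 29 of 32 were lower (median -0.65, against 0.0034), with 2 arrays in each group. Parental tumours ran the other way on the fitted arrays. There the list's median deviation was 0.00 on the Nlrx1-/- array, against -0.81 and -0.18 on the WT arrays. On the Nlrx1-/- parental array left out it was -1.52, so the parental direction rests on which array is kept.

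The genes with the largest negative host differences were Ero1a at -1.10, Ndrg1 at -1.08, Adm at -1.04 and Slc2a1 at -1.03, each with an adjusted p of 1.00. For Slc2a1 the Nlrx1-/- 4T1OE arrays, 15.57 and 15.40, were below the WT 4T1OE arrays, 16.50 and 16.65, and the Nlrx1-/- 4T1OE-CTL arrays, 12.92 and 14.79, below the WT 4T1OE-CTL arrays, 16.00 and 15.75. In parental tumours the fitted Nlrx1-/- array, at 14.95, lay between the WT arrays. All 9 B cell and lymph node markers were positive in Nlrx1-/- hosts, with a median of 1.93 and none called, and the 2 arrays highest in them were both from Nlrx1-/- hosts. Without those 2 arrays the list's median was -0.09, with 11 of 32 genes positive. Negative in Nlrx1-/- hosts along with the list, with none called, were all 11 proliferation genes (median -0.70, 7 at an unadjusted p under 0.05), all 12 epithelial markers (median -0.73, 5 at that p) and all 9 neutrophil markers (median -0.38, 1 at that p). Also negative, with none called, were 19 of 22 skeletal muscle markers (median -0.56) and 8 of 9 fibroblast markers (median -0.30). With the muscle deviation as a covariate, 5 of the 32 genes were positive. All 12 T and NK cell markers were positive (median 0.66), as were 11 of 14 macrophage markers (median 0.19) and 11 of 13 endothelial markers (median 0.28). The part of these shifts was not tested.

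Epas1 ran the other way, at 0.70 ± 0.25 (SE) in Nlrx1-/- over WT hosts (unadjusted p = 0.0157 in limma's fit, adjusted p = 1.00). In 4T1OE-CTL tumours it read 7.79 and 7.78 in Nlrx1-/- hosts and 6.68 and 6.56 in WT hosts. In 4T1OE tumours it read 7.68 and 7.30 in Nlrx1-/- hosts and 7.48 and 7.74 in WT hosts. In parental tumours it read 8.21 on the fitted Nlrx1-/- array and 6.62 and 7.30 in WT hosts. On the fitted arrays the hosts were thus apart in the transduced control and in parental tumours, and overlapped in 4T1OE. The Nlrx1-/- parental array left out read 6.73, between the WT parental arrays.

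Whether the difference between 4T1OE and 4T1OE-CTL itself differed by host was tested as an interaction, Nlrx1-/- minus WT. No gene of the list passed, nor did any feature (0%); at an unadjusted p under 0.05, 1 of the 32 genes, Epas1, and 3.27% of features did. The Epas1 interaction was -1.29 (95% interval -2.23 to -0.34, adjusted p = 0.999). The median of the list was 0.28, as was that of features averaging above 10. For Egln3 the interaction was -0.12 (95% interval -1.21 to 0.96), and its group means differed between 4T1OE and 4T1OE-CTL in the same direction in both hosts.

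**Figure D4:**
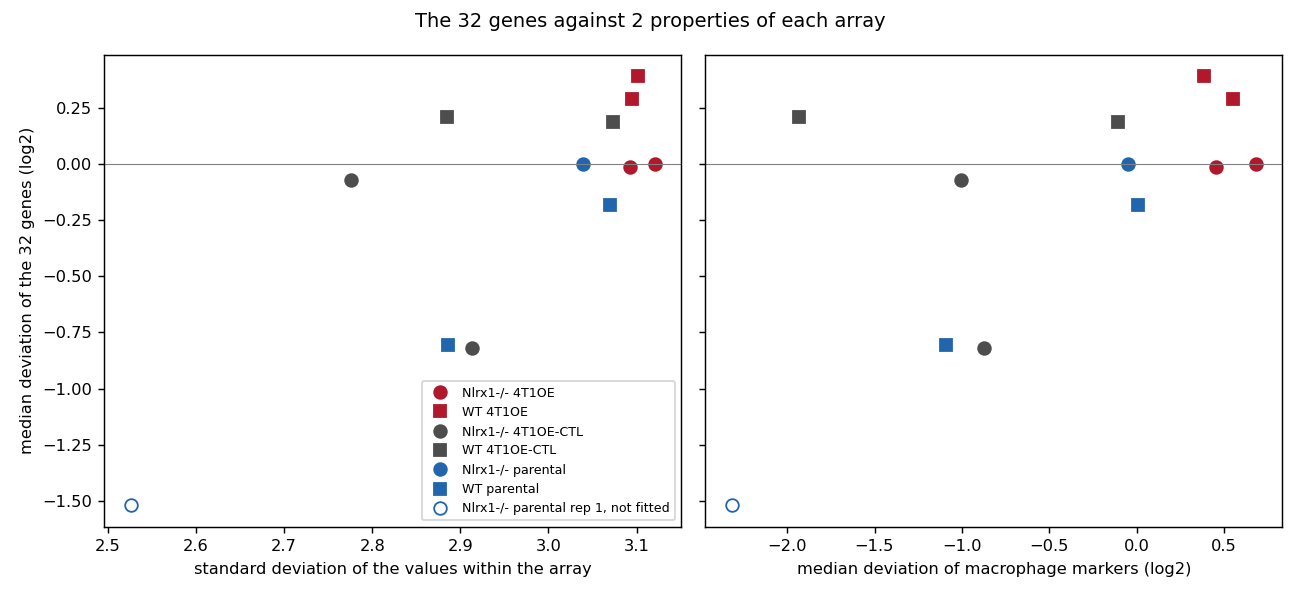
Median log2 deviation of the 32 genes on each array (vertical axis) against the standard deviation of the array's values (left) and the median deviation of the macrophage markers (right). Colour gives the line and shape the host; the 4 4T1OE arrays lie at the right of both panels, and the array left out lies at the lower left of both.

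The plot of the list against 2 properties of each array shows how far line, array spread and macrophage markers ran together. All 4 4T1OE arrays had a standard deviation above that of the other fitted arrays, and higher macrophage markers than any of them. The 3 arrays with the lowest list medians, 1 of 4T1OE-CTL and 2 of parental tumours, had standard deviations from 2.53 to 2.91 and macrophage deviations from -2.32 to -0.87, yet the other 4T1OE-CTL arrays under 3 (2.78 and 2.88) had medians of -0.07 and 0.21. With the macrophage deviation as a covariate the median difference of the list between 4T1OE and 4T1OE-CTL was -0.0011. With the array's standard deviation as a covariate it was 0.04, and after quantile normalization 0.06. The part of macrophage content or of array spread in the line differences was not tested separately, since line and both measures moved together.

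Beyond the list, 55 of 63 further genes of glycolysis and the HIF pathway were measured. In 4T1OE over 4T1OE-CTL tumours 4 of them were higher and none lower, where 3.69% of all features were called higher and 1.04% lower, and their median was 0.04 against 0.35 for the list. Ddit4, a hypoxia-induced inhibitor of mTORC1 signalling, averaged 11.90 ± 0.27 in 4T1OE, 9.98 ± 0.80 in 4T1OE-CTL and 12.17 ± 0.79 in parental tumours (SD). It stood 1.92 above 4T1OE-CTL in 4T1OE (adjusted p = 0.0225) and -2.12 in 4T1OE-CTL relative to parental tumours (adjusted p = 0.0214). Its mean in the transduced control was thus below both. The call between 4T1OE-CTL and parental tumours was lost in 2 of 11 fits that leave out 1 array. It was also lost in 4 of 14 other settings. Arnt, the partner of the HIF alpha subunits, stood 1.20 above 4T1OE-CTL in 4T1OE tumours (adjusted p = 0.0263). The monocarboxylate transporter gene Slc16a7 was 1.34 higher (adjusted p = 0.0379). Its 4T1OE-CTL mean of 5.32 lay near the negative control medians of those arrays, 5.27 to 5.68, so the size of that difference is bounded by dim signal.

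Car12, a membrane carbonic anhydrase like Car9, averaged 9.53 ± 0.58 in 4T1OE, 8.31 ± 0.79 in 4T1OE-CTL and 7.999 ± 0.22 in parental tumours. In 4T1OE it stood 1.21 above 4T1OE-CTL (adjusted p = 0.0381) and 1.66 above parental tumours (adjusted p = 0.0274), where it was the 1 gene of the 55 to pass. Eno3, the muscle enolase and also 1 of the 22 muscle markers, exceeded its parental level by 1.58 in 4T1OE-CTL tumours (adjusted p = 0.0482). That call was lost in 9 of 11 fits that leave out 1 array and in 7 of 14 other settings, the muscle covariate among them (1.14, adjusted p = 0.291). The Car12 call against parental tumours was lost in 6 of 11 fits that leave out 1 array, with adjusted p up to 0.0951, and in 6 of 14 other settings. None of the 55 passed between hosts or in the interaction; 3 of 55 between hosts and 1 of 55 in the interaction had an unadjusted p under 0.05, where 4.3% and 3.27% of all features did. The 4 calls between 4T1OE and 4T1OE-CTL were lost in 4 to 8 of 11 fits that leave out 1 array. Under the macrophage covariate or the array's standard deviation as a covariate, none of the 4 genes called between 4T1OE and 4T1OE-CTL passed.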

How the data were processed

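The 12 tumour arrays were analysed from 1 table of log2 expression values as the authors deposited it, made with Transcriptome Analysis Console per the submitters' processing notes; its version and normalization were not given in the sources used here. One column, the manufacturer's control RNA, was not used. Control features (5222 negative, 1324 positive, 31 AFFX and 63 ERCC) were set aside, which left 22206 features, 19572 of them with a gene symbol from the platform annotation and 2634 without. Nothing was renormalized. An additive model of host and line on 11 arrays, and for the interaction 1 mean per group, was fitted by lmFit and eBayes of limma (version 3.58.1, under R 4.3.3); tests were two-sided, adjusted by Benjamini-Hochberg over all features and called at an adjusted p under 0.05; the procedure was tested on simulated data. Beside a median deviation, each gene is taken relative to its own median over those 11 arrays. The number of arrays limits the precision, and signal near the negative controls bounds dim genes. The named genes are all members of the list, the further pathway genes that passed in a comparison of lines or hosts, and Nlrx1. The members and lists were chosen with earlier results of these data known. Several glycolytic genes have near-identical pseudogenes, and whether their probes also read those was not tested. Alternatives covered arrays fitted, normalization, dim features, variance model, weights, replicate block, model, array spread, muscle markers, threshold and each array left out; leaving out arrays rich in lymph node or muscle markers and a macrophage covariate were added after seeing the data. Promoters came from RefSeq windows.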

Additional observations from a re-analysis of the deposited data

Results flagged for a closer look

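Each gene was checked in each line or host group of at least 4 fitted arrays for 1 array set apart from the rest by a gap that is large against the group's range. Of 128 such pairs of gene and group, 10 had one; chance gives about 1 in 20 groups.

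On Nlrx1-/- 4T1OE-CTL replicate 1, the array highest in B cell and lymph node markers, Ndrg1 read 12.1 (14.7 to 15.4 on the other Nlrx1-/- arrays), Slc16a1 read 11.2 (12.8 to 13.4), Aldoa read 16.2 (17.4 to 17.8) and Pgk1 read 13.9 (14.5 to 14.7), each the low array among Nlrx1-/- hosts. On the same array Aldoc read 9.28, below the 10.9 to 11.1 of the other 4T1OE-CTL arrays. The part of lymph node tissue in these values was not tested.

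Egln1 read 14.0 on WT 4T1OE replicate 2, above the 13.2 to 13.3 of the other 4T1OE arrays and the 13.3 to 13.5 of the other WT arrays. Hk1 read 13.04 on Nlrx1-/- 4T1OE replicate 1, below the 13.4 of the other 4T1OE arrays. Hk2 read 9.75 on WT parental replicate 1, below the 11.2 to 11.8 of the other WT arrays. Pfkfb4 read 6.76 on WT 4T1OE-CTL replicate 2, below the 7.38 to 7.46 of the other 4T1OE-CTL arrays.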

How the results depend on the processing

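Between 4T1OE and 4T1OE-CTL, 0 genes of the list passed with all 12 arrays, quantile normalization, the array's standard deviation as a covariate, arrays of standard deviation under 3 left out, the muscle or macrophage covariate, or the lymph node-rich or muscle-rich arrays left out, and 5 passed at an unadjusted p under 0.05 with a fold of 2; leaving out 1 array gave 0 to 2, the cause was not tested. The list's median, 0.35 in the main fit, was -0.0011 with the macrophage covariate and 0.13 to 0.43 with 1 array left out. It was 0.04 with the array's standard deviation as a covariate, 0.06 after quantile normalization and 0.12 without the arrays of standard deviation under 3. Between 4T1OE-CTL and parental tumours, 0 passed without the arrays of standard deviation under 3 and with the muscle or macrophage covariate, 2 at the unadjusted threshold and 0 to 2 with 1 array left out; Pfkfb3 did not pass without Nlrx1-/- parental replicate 2 (adjusted p = 0.126) or WT 4T1OE-CTL replicate 1 (adjusted p = 0.0529). The median was 0.53 with all 12 arrays, 0.54 without the lymph node-rich arrays, -0.01 with array weights, and -0.18 (without WT parental replicate 1) to 0.75 (without Nlrx1-/- parental replicate 2). Between 4T1OE and parental tumours, 1 passed without the dimmest 33.3% of features, with an intensity trend and robust variances, and with the replicate block, 2 with array weights (Egln3 and Pfkp), 6 at the unadjusted threshold and 0 to 2 with 1 array left out. The median was 0.92 with all 12 arrays, 0.26 without the arrays of standard deviation under 3 or without WT parental replicate 1, and at most 0.94 with another array left out. Between hosts 3 genes passed at the unadjusted threshold, all lower in Nlrx1-/- hosts, and 0 with any array left out; in the interaction 1 passed at that threshold and 0 with any array left out, with a median of -0.22 without the lymph node-rich arrays and -0.14 to 0.58 with 1 array left out. The interaction could not be fitted without the arrays of standard deviation under 3, since no Nlrx1-/- 4T1OE-CTL array remains. Features called ranged from 3 (macrophage covariate) to 2140 (array weights), with 70 to 2663 on leaving out 1 array, between 4T1OE and 4T1OE-CTL, where 1051 were called; from 142 to 1219, and 126 to 880, between 4T1OE-CTL and parental tumours (575); from 26 to 1048, and 83 to 342, between 4T1OE and parental tumours (295); from 0 to 102 between hosts and 0 to 571 in the interaction (0 each). The unadjusted threshold with a fold of 2 called 1491 of 22206 features between 4T1OE and 4T1OE-CTL. It called 1219 between 4T1OE-CTL and parental tumours and 1048 between 4T1OE and parental tumours. Between hosts it called 102, and in the interaction 571. Of 158 differences not called, up to 29 changed sign in an alternative. Whether the replicate numbers pair the arrays cannot be told, since 2 arrays per group give 1 difference each. Correlations of same-numbered deviations over 10 pairs of groups ran from -0.31 to 0.37. With the replicate block, the Egln3 differences were 1.24 from 4T1OE-CTL (adjusted p = 0.0312) and 1.47 from parental tumours (adjusted p = 0.0376). Leaving out the dimmest 33.3% moved the median of all features between 4T1OE and 4T1OE-CTL to 0.11, against -0.05.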
